A study of Triticum aestivum with 4 samples.

Results

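The large subunit of Rubisco, rbcL, was examined in whole developing wheat (*Triticum aestivum*) seed through every probe set that the array annotation gives to the gene LOC100049018. These were 28 of the 61179 probe sets tested. They were taken by that annotation and not by their values. Of these, 24 share the identifier stem of TaAffx.128414.16.S1_at and are called the large group below. The other 4 have stems of their own (Ta.14567.2.S1_at, Ta.24976.1.S1_x_at, Ta.3807.1.A1_at and TaAffx.128896.17.S1_s_at).

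Rubisco fixes carbon dioxide in the Calvin cycle. Its large subunit carries the catalytic site and in plants is encoded by the plastid genome, while the small subunit, rbcS, is encoded in the nucleus. Young cereal grains are green: a layer of the pericarp holds chloroplasts, and the starchy endosperm later fills with amyloplasts. Most plastid messages carry no stable poly(A) tail, and the nuclear genomes of grasses hold inserted copies of plastid DNA. The gene table used here lists LOC100049018, with rbcl as its synonym, on a nuclear chromosome, and it holds 0 entries on a plastid chromosome. Whether the probe sets report plastid message, nuclear copies or both was not tested. The name rbcL below follows the annotation.

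The genotypes were Domain (AC Domain in the series' design text) and RL4452, which were crossed for mapping. Both were grown untreated in field rows of 1.47 m with 3 replications, and seed was taken 5 days after anthesis. All 4 sample titles give the location as SB. Each genotype has 2 arrays, biological replicates 1 and 3. Each RNA came from a tube filled with whole seeds, so pericarp, endosperm and embryo were not separated, and fewer cells of a type cannot be told apart from less RNA per cell. RNA was enriched for poly(A) and hybridised to an Affymetrix wheat array. Each value is the log2 of a ratio, the signal on an array over that probe set's median across the 4 arrays. Such values keep differences between arrays but hold no level of 1 probe set against another, so neither the labelled tissue nor the signal of rbcL over background could be checked. The median also ties the middle pair of arrays to values of nearly equal size and opposite sign.

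The 28 probe sets came from 27 source sequences, of which 1 served 2 probe sets (TaAffx.128414.15.S1_at and TaAffx.128414.15.S1_x_at). All but 1 source are expressed sequence tags (ESTs) by their record prefixes. The exception is the source of TaAffx.128414.1.A1_x_at. On this array the suffix _at alone marks probes meant to be specific, carried by 23 members. The suffix _x_at, carried by 4 members, marks probes that may bind unrelated transcripts, and _s_at, carried by 1, marks probes shared by similar transcripts. The members thus share a gene name and part of their sequence, and are not replicates of each other.

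In these seeds rbcL showed no genotype difference that passed the test. None of the 28 probe sets was called (limma, Benjamini-Hochberg adjusted p under 0.05 over all probe sets), against 0.28% of all probe sets. The smallest adjusted p was 0.813 in limma. At an unadjusted p under 0.05 there was 1 member, TaAffx.128414.16.S1_at, against 5.85% of all probe sets. Differences, RL4452 minus Domain, ran from -0.54 to 0.44 on the log2 scale, with 18 members higher and 10 lower in RL4452. Their median was 0.03, against 0.01 over all tested probe sets, of which 52.0% were higher. The median size of the difference, sign ignored, was 0.105, against 0.169 over all tested probe sets. A size under 0.2 was found in 20 of the 28 (71.4%), against 56.5% of all.

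How large a difference in probe set signal could have been missed is shown by the 95% intervals of the fit. The intervals do not bound a difference in rbcL RNA, since the signal over background could not be checked. For 23 of the 28 probe sets the interval left out a 2-fold difference in either direction, as it did for 74.6% of all tested probe sets. The largest fold an interval allowed was 1.40 for the narrowest and 3.29 for the widest, with a median over members of 1.64. All intervals but that of TaAffx.128414.16.S1_at held 0. Missing the threshold does not show that the genotypes were equal, and 2 arrays per genotype limit the precision.

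**Figure D1:**
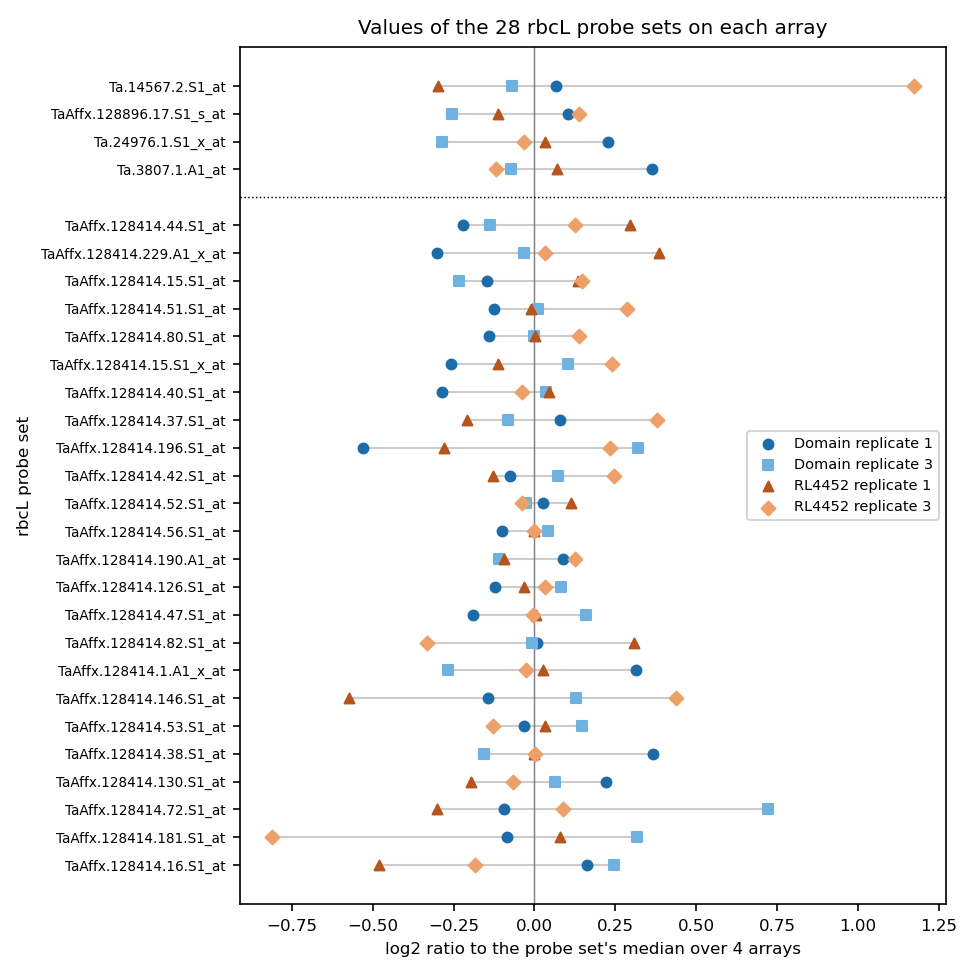
Each row is 1 rbcL probe set and each marker 1 array, on the log2 ratio to the probe set's median over the 4 arrays. The 4 probe sets above the dotted line lie outside the large group. Within 0.5 of 0 on every array lie 23 of the 28, and the farthest point is Ta.14567.2.S1_at on RL4452 replicate 3, at 1.17.

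Both arrays of a genotype lay on the same side of both arrays of the other in 6 of the 28 probe sets, against 32.4% of all tested probe sets. All 6 were in the large group. In 4 of them RL4452 was above Domain (background 17%) and in 2 below (background 15.5%). These shares are near or under the background, and the directions opposed each other.

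TaAffx.128414.16.S1_at had the largest negative difference. It read 0.16 and 0.25 on Domain replicates 1 and 3, and -0.48 and -0.18 on RL4452 replicates 1 and 3. Both RL4452 arrays were below both Domain arrays. The means were 0.20 ± 0.06 and -0.33 ± 0.21 (SD, n = 2), and the difference was -0.54 with SE 0.20 and a 95% interval from -1.04 to -0.03 (limma adjusted p = 0.813).

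TaAffx.128414.44.S1_at had the largest positive difference in that group, and its order was the opposite. It read -0.22 and -0.14 in Domain and 0.30 and 0.13 in RL4452. The difference was 0.39 with SE 0.18 and an interval from -0.07 to 0.85 (limma adjusted p = 0.911). TaAffx.128414.15.S1_at came next by p, at -0.15 and -0.23 in Domain and 0.13 and 0.15 in RL4452. The gaps between its replicates, at most 0.087, were the smallest larger gap of any member. Its difference was 0.33 with SE 0.17 (limma adjusted p = 0.941). The other probe set of the same EST, TaAffx.128414.15.S1_x_at, did not separate the genotypes: it read -0.26 and 0.10 in Domain and -0.11 and 0.24 in RL4452, a difference of 0.14 (limma adjusted p = 0.998). So probe sets designed from 1 source sequence ordered the 4 arrays differently.

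TaAffx.128414.229.A1_x_at and TaAffx.128414.80.S1_at were the other members with both RL4452 arrays above, with differences of 0.38 and 0.14. TaAffx.128414.130.S1_at was the other member with both below, with a difference of -0.28. In TaAffx.128414.181.S1_at and TaAffx.128414.72.S1_at the differences of -0.48 and -0.42 came with overlapping genotypes. The first had a single low array, RL4452 replicate 3 at -0.81, and the second a single high one, Domain replicate 3 at 0.72.

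Outside the large group the genotypes overlapped in all 4 probe sets. Ta.14567.2.S1_at had the largest value of any member. It read 0.07 and -0.07 in Domain and -0.30 and 1.17 in RL4452, so RL4452 held both its lowest and its highest array. Its difference of 0.44 with SE 0.50 (limma adjusted p = 0.986) rested on RL4452 replicate 3, without which it was -0.30.

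Ta.3807.1.A1_at read 0.36 and -0.07 in Domain and 0.07 and -0.12 in RL4452, high on Domain replicate 1 alone. Its difference was -0.17 with SE 0.23 (limma adjusted p = 0.994), and 0.05 without that array. Ta.24976.1.S1_x_at read 0.23 and -0.28 in Domain, which held its highest and lowest arrays, and 0.03 and -0.03 in RL4452. TaAffx.128896.17.S1_s_at read 0.10 and -0.25 in Domain and -0.11 and 0.14 in RL4452. Differences of these last probe sets were 0.03 with SE 0.24 and 0.09 with SE 0.22, and both changed sign when single arrays were left out.

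As a group, the large-group members had a median difference of 0.03, with 15 of 24 higher in RL4452, and the other members 0.06, with 3 of 4 higher. The median over members of the large group was -0.10 and 0.04 on Domain replicates 1 and 3 and, in the same order, -0.0014 and 0.03 in RL4452. The median of the other 4 was 0.17 and -0.16 in Domain and -0.04 and 0.05 in RL4452. The groups of probe sets thus ordered the Domain arrays oppositely, while neither set the genotypes apart. With 4 probe sets on 1 side, 1 probe set can move that median, and no test was made.

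**Figure D2:**
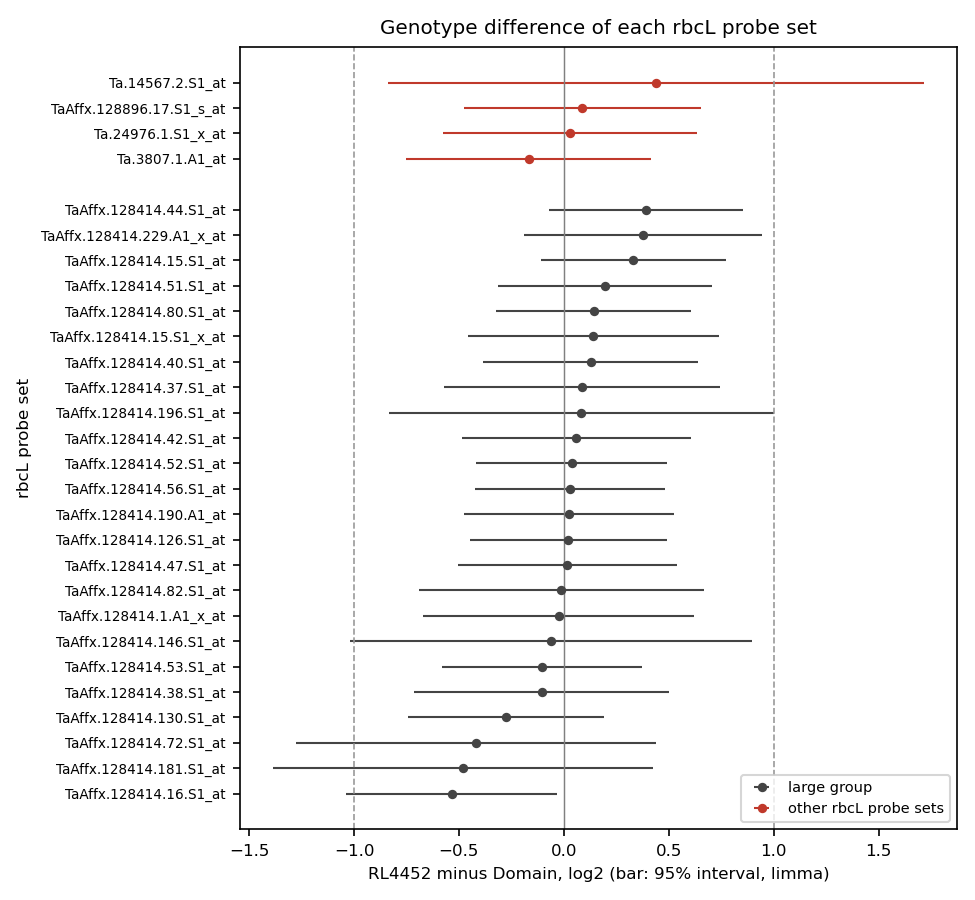
Points are the RL4452 minus Domain differences of the 28 rbcL probe sets on the log2 scale and bars their 95% intervals from limma, with dashed lines at a 2-fold difference. The intervals of 23 probe sets stay inside the dashed lines, and only that of TaAffx.128414.16.S1_at leaves out 0.

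Replicates of 1 genotype also differed. The median gap between replicates over the 28 probe sets was 0.201 in Domain and 0.204 in RL4452. The median size of the genotype difference, sign ignored, was 0.105. These measures are unlike: a gap is between single arrays, and a genotype difference is between means of 2 arrays. Gaps would therefore tend to be larger even with no genotype difference, so the shares over all tested probe sets are given beside them. Over all tested probe sets the gaps were 0.237 and 0.236. In 22 of the 28 (78.6%) the larger gap exceeded the genotype difference, as in 78.8% of all tested probe sets. In 14 (50.0%) both gaps did, against 42.4% of all.

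The widest gap in the large group belonged to TaAffx.128414.146.S1_at. It read -0.14 and 0.13 in Domain and -0.57 and 0.44 in RL4452, a gap of 1.01 within RL4452 beside a genotype difference of -0.06. Outside that group it was the 1.47 of Ta.14567.2.S1_at. A range over the 4 arrays of more than 1 log2 unit was found in 3 of the 24 large-group members and 1 of the other 4, against 14.3% of all tested probe sets. The median range was 0.489 over the members and 0.498 over all tested probe sets.

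No array was high or low for all members. RL4452 replicate 3 was the highest array for 10 members, Domain replicate 3 for 8, and each of the other arrays for 5. Domain replicate 1 was the lowest for 10, all of them in the large group, against 31.1% of all tested probe sets. Median gaps also differed by the source of the probe set, a split made after values were seen. For the 13 members from ESTs of the BE record series they were 0.147 in Domain and 0.161 in RL4452. For the 13 of the CA series they were 0.269 and 0.351. All BE members lie in the large group, while Ta.14567.2.S1_at, Ta.24976.1.S1_x_at and TaAffx.128896.17.S1_s_at are of the CA series. The split by source is thus not separate from that by group.

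**Figure D3:**
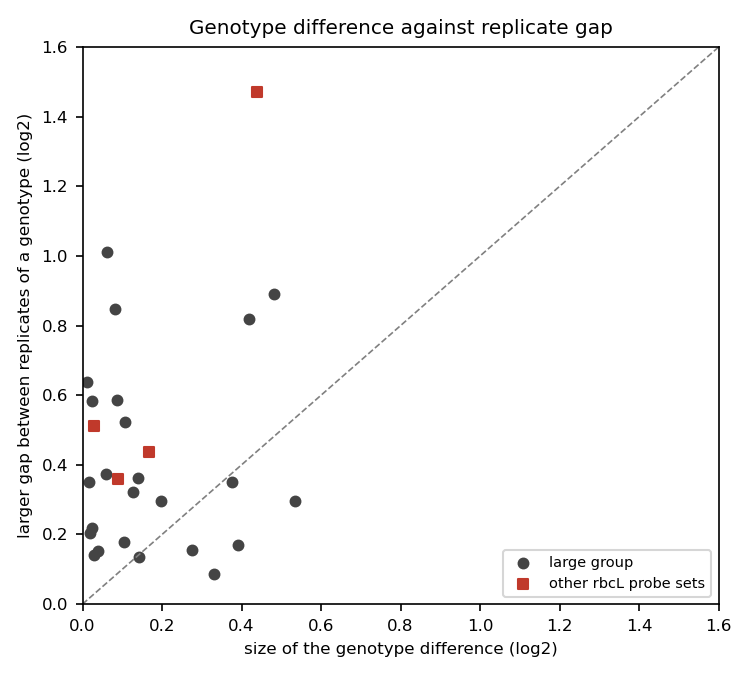
Each point is 1 rbcL probe set, with the size of its genotype difference on the x axis and the larger of its gaps between replicates on the y axis, both in log2 units. The 22 points above the dashed line of equality had a replicate gap larger than the genotype difference.

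Agreement between probe sets was measured as the root mean square (RMS) difference of their log2 values over the 4 arrays, each centred on its own mean. Over all 378 pairs of members the median was 0.279 and the range 0.032 to 0.972. It was 0.268 for the 276 pairs within the large group, 0.310 for the 96 pairs between that group and the others, and 0.338 for the 6 pairs among the others. The median was thus somewhat lower inside the large group, but the ranges overlapped over most of their length. Pairs share probe sets, so no test was made. The medians between the groups and among the others depend on Ta.14567.2.S1_at. Its nearest member lay 0.332 away, so all its pairs between the groups lay above the median of 0.310. Among the others its pairs were 0.472, 0.595 and 0.669 apart. Pairs there without it were 0.111, 0.127 and 0.204 apart, all below the large-group median. An RMS difference under 0.1 was found for 18 pairs within the large group (6.52%), 4 between the groups (4.17%) and 0 among the others. In the 16 other genes with at least 5 probe sets the median pair ran from 0.057 to 0.55, with a median of 0.253, and 10 of the 16 were closer than rbcL.

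**Figure D4:**
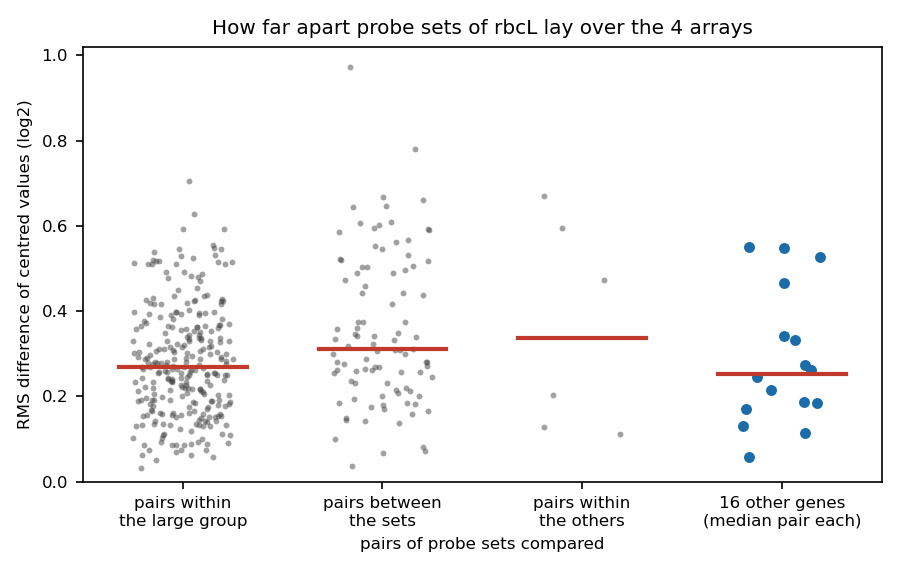
Grey points are pairs of rbcL probe sets, blue points the median pair of each of 16 other genes with at least 5 probe sets, and red bars medians; the y axis is the RMS difference of centred log2 values over the 4 arrays. The medians are 0.268 within the large group, 0.310 between the groups, 0.338 among the others and 0.253 over the other genes.

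The closest pair, TaAffx.128414.126.S1_at and TaAffx.128414.56.S1_at, lay 0.032 apart, and the latter was the flattest member, with a range of 0.141 over the arrays. Next, at 0.036, came Ta.24976.1.S1_x_at and TaAffx.128414.1.A1_x_at, which lie in different groups. Both carry the suffix _x_at. TaAffx.128414.1.A1_x_at read 0.31 and -0.27 in Domain and 0.03 and -0.03 in RL4452, the order of Ta.24976.1.S1_x_at. TaAffx.128414.38.S1_at, at 0.37 and -0.16 in Domain and -0.0029 and 0.0029 in RL4452, was 0.050 from TaAffx.128414.1.A1_x_at and 0.082 from Ta.3807.1.A1_at. In these 4 probe sets Domain replicate 1 was the highest array. They were singled out after their values were seen. The farthest pair was Ta.14567.2.S1_at and TaAffx.128414.181.S1_at, 0.972 apart, which moved in opposite directions on RL4452 replicate 3.

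Other genes of photosynthesis were taken from a list of symbols. It held 9 probe sets of 6 genes, and the nuclear-encoded small subunit rbcS was not among the readable names. None of the 9 was called, and none had an unadjusted p under 0.05 in limma. Their median difference was -0.22, with 2 higher and 7 lower in RL4452. In 2 of the 9 the genotypes did not overlap, against 32.4% of all tested probe sets.

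Phosphoribulokinase, PRK (LOC543283), which makes the sugar bisphosphate that Rubisco uses, read 0.45 and 0.10 in Domain and -0.10 and -0.34 in RL4452. Its genotypes did not overlap, and the difference was -0.49 with SE 0.22 (limma adjusted p = 0.897). The fructose bisphosphatase FBP, an enzyme that removes a phosphate from fructose bisphosphate, had probe sets at -0.30 and 0.36, with limma adjusted p of 0.967 and 0.990. The first was the other without overlap.

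PsbP (LOC543290) and PsbO (LOC543291) are extrinsic proteins of the oxygen-evolving complex of photosystem II. The PsbP probe sets had differences of -0.22 and -0.44 and the PsbO one -0.11, with limma adjusted p of at least 0.972. The Rieske iron-sulfur protein petC, a subunit of the cytochrome b6f complex, had -0.29 and -0.22, with limma adjusted p of at least 0.981. LOC543415 matched the list by its synonym atpA, but it also carries the synonym IVR1, so no role is given. Its difference was 0.02.

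Of these 9 probe sets 5 were highest on Domain replicate 1 (PRK, both of PsbP, PsbO and 1 of petC), against 22.9% of all tested probe sets. On RL4452 replicate 3 5 were lowest, against 26.0% of all. Ta.3807.1.A1_at was the rbcL member closest to the first PsbP probe set (0.066 RMS) and to PsbO (0.10 RMS). For the other PsbP probe set it was TaAffx.128414.181.S1_at (0.189 RMS). The first PsbP probe set read 0.30 and -0.07 in Domain and 0.07 and -0.28 in RL4452. Over all 28 members the median RMS difference was 0.312 from that PsbP probe set, 0.433 from the other and 0.282 from PsbO. The closest pair of a member and a listed probe set was TaAffx.128414.126.S1_at and that of LOC543415, 0.013 apart. These pairs were named after their values were seen. On the same arrays the wheat control transcripts (7 pairs of probe sets) had a median 3' minus 5' log2 difference of 0.40 on RL4452 replicate 3, against 0 and -0.0023 in Domain and -0.22 on RL4452 replicate 1. For 12 pairs of spike-in probe sets that difference was 1.25 on RL4452 replicate 3, against -0.23 on both Domain arrays and -0.59 on RL4452 replicate 1. The part of these control differences in the values above was not tested.

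Among the 171 probe sets of other genes with a readable name, those closest to the median profile of the large-group members over the 4 arrays were Ta.198.1.S1_at of LOC543415 (0.033 RMS), a histone H2B probe set of LOC543184 (0.042) and a serpin probe set of LOC542985 (0.045). For the other 4 members they were a histone H2A probe set of LOC732714 (0.059), a histone H2B probe set of LOC543183 (0.077) and RPS29, a ribosomal protein (0.092). Their values were small on every array, from -0.23 to 0.19, so closeness here is that of flat profiles. The median over the 171 was 0.273 for the first profile and 0.313 for the second.

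The array holds 59 probe sets with the identifier stem of the large group, and 35 of them have no gene listed here. They were looked at after the members' values were known. None of the 35 was called, and 3 had an unadjusted p under 0.05 in limma (background 5.85%). Their median range over the arrays was 0.683, against 0.457 for the 24 members, and 10 of the 35 had a range above 1 log2 unit. The genotypes did not overlap in 16 of the 35 (background 32.4%). Both RL4452 arrays were below both Domain arrays in 11 (background 15.5%) and above in 5 (background 17%), against 2 and 4 of the 24 members.

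The lowest differences among them were those of TaAffx.128414.215.S1_s_at, TaAffx.128414.219.S1_x_at and TaAffx.128414.205.S1_x_at. The first read 1.67 and 0.28 in Domain and -0.34 and -0.81 in RL4452, a difference of -1.55 (limma adjusted p = 0.703). The second read 0.79 and 0.11 in Domain and -0.12 and -1.85 in RL4452, a difference of -1.44 (limma adjusted p = 0.891). The third read 0.42 and 0.30 in Domain and -0.38 and -1.74 in RL4452, a difference of -1.42 (limma adjusted p = 0.722). All carry a suffix for shared probes. On RL4452 replicate 3 the lowest annotated rbcL member of the group, TaAffx.128414.181.S1_at, read -0.81, as low as the first of these.

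TaAffx.128896.17.S1_s_at shares its identifier stem with 16 probe sets that have no listed gene, and these were mixed. In 5 of them the range over the arrays, 0.225 to 0.364, was below the 0.394 of the rbcL member. TaAffx.128896.13.S1_x_at, at 0.14 and -0.15 in Domain and -0.19 and 0.18 in RL4452, had nearly the values of that member. Of the 16, 10 were highest on Domain replicate 1, at 0.10 to 2.68, and lowest on RL4452 replicate 1, at -2.37 to -0.15. The steepest, TaAffx.128896.2.S1_at, read 2.68 and 0.09 in Domain and -1.75 and -0.10 in RL4452. The median gap between replicates of the 16 was 1.07 in Domain and 1.74 in RL4452, against 0.359 and 0.251 for the rbcL member. None of the 16 was called, and 0 had an unadjusted p under 0.05 in limma.

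**Figure D5:**
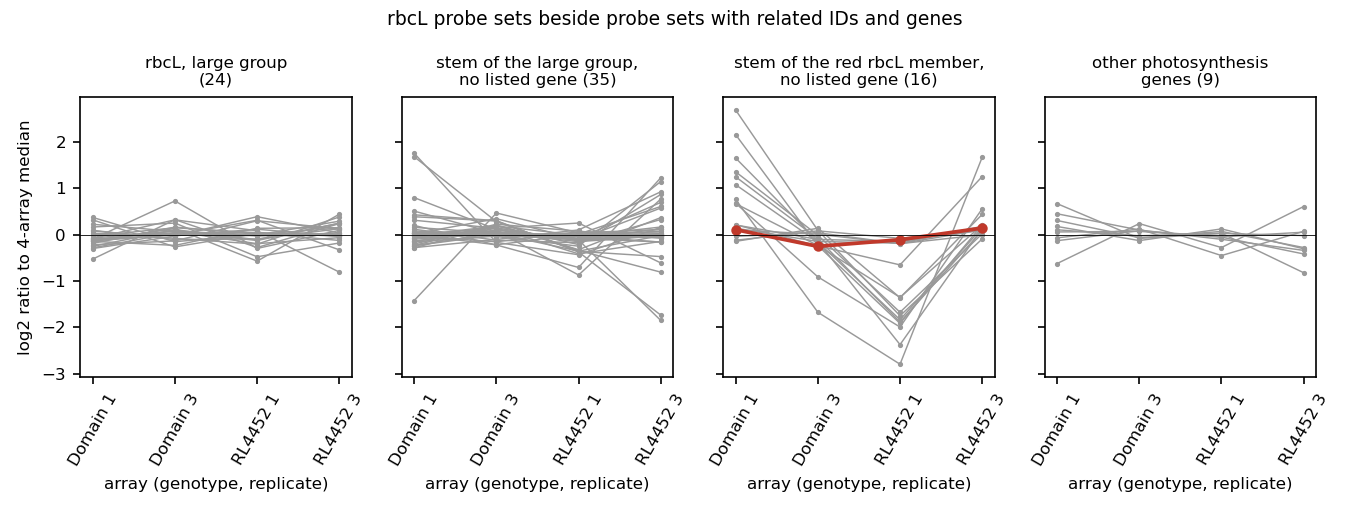
Lines join the values of 1 probe set over the 4 arrays (log2 ratio to its median; arrays named by genotype and replicate). The 24 rbcL members of the large group stay between -0.81 and 0.72, while probe sets of the same stem with no listed gene reach 1.75 and -1.85, and those sharing a stem with TaAffx.128896.17.S1_s_at reach 2.68 and -2.80 beside the rbcL member drawn in red.

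Some control values differed strongly between replicates. The 18S rRNA probe set read 0.75 and -1.68 on Domain replicates 1 and 3 and 2.04 and -3.12 on RL4452 replicates 1 and 3, and the 36 poly-A spike-in probe sets had medians of 0.50 and -0.92, and 1.33 and -0.86. In both genotypes these controls were lower on replicate 3. The rbcL members went both ways: replicate 3 was below replicate 1 in 12 of 28 in Domain (45.3% of all tested probe sets), in 11 in RL4452 (47.2% of all) and in both genotypes in 5 (25.2% of all). All 4 members outside the large group were lower on Domain replicate 3, by a median difference of -0.40, and 2 of them were lower on RL4452 replicate 3. In the large group 8 of 24 were lower in Domain and 9 in RL4452. The part of these control differences in the rbcL values was not tested. Each array had its own hybridization day. Domain replicate 3 and RL4452 replicate 1 shared 1 fluidics module, and between them the median rbcL difference was -0.031.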

How the data were processed

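The authors deposited linear ratios. The submitters' processing notes name RMA, a method that summarises probes to 1 value per probe set, and the sources used here give neither its version nor any later step. Of the 61290 features 99.5% had a 4-array median ratio within 0.002 of 1. Fluidics module and day came from the deposited setting files, as possible batches.

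The ratios were log2-transformed. The AFFX controls were left out, and RL4452 was compared with Domain over 61179 probe sets by lmFit and eBayes of limma 3.58.1 (R 4.3.3; two-sided, 2.99 prior degrees of freedom, intervals unadjusted). The test was run on simulated data with planted differences larger than any of the rbcL members. That check does not cover differences of the size seen in the members. Python 3.11.15 was used for summaries, with numpy 2.4.6, pandas 2.3.3 and matplotlib 3.10.9.

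Members came from the array's annotation, which lists 1273 probe sets of 771 genes, with synonyms from the gene table of IWGSC CS RefSeq v2.1. No coordinates were used, and no sequences are shown. Members, lists and tests were chosen with earlier results of these data known. Described in full were the 3 examples of the rule and, in each group, the 3 smallest p, both extreme differences and the largest replicate gap. Further probe sets were named after their values were seen.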

Additional observations from a re-analysis of the deposited data

How the results depend on the processing

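In the refits that kept every array, none of the 28 rbcL and 9 photosynthesis probe sets was called by limma where it was fitted. The refit without the suffixes _s_at, _x_at and _a_at held only 23 of the rbcL and 7 of the photosynthesis probe sets. Each of these refits had 1 rbcL member at an unadjusted p under 0.05 in limma. Over all probe sets 171 were called, 0 with the replicate block (4555 at an unadjusted p under 0.05) and 0 to 128 without single arrays, where the remaining array is taken to vary as the other genotype does. The labels do not say that replicate numbers pair samples, and across probe sets the replicate differences of the genotypes had a correlation of 0.143. The median rbcL difference of 0.029 ran from -0.029 to 0.070 over arrays left out and was -0.031 within the shared fluidics module. For the large group it ran from -0.024 to 0.087 and was -0.077 within the module. For the other members it ran from -0.16 to 0.28 and was 0.143 within the module, opposite in sign to the large group. The photosynthesis median of -0.22 ran from -0.33 to -0.082, the weaker end without Domain replicate 1. It was -0.086 when RL4452 replicate 3 was left out, and -0.125 within the module. Over arrays left out, 5 of the probe sets described in full changed sign. Ta.14567.2.S1_at ran from -0.30 to 1.17, Ta.24976.1.S1_x_at from -0.23 to 0.28, Ta.3807.1.A1_at from -0.39 to 0.050, TaAffx.128414.146.S1_at from -0.57 to 0.44 and TaAffx.128896.17.S1_s_at from -0.091 to 0.27. A fit with module as block could not be made, since no residual degrees of freedom were left. With 1 value per source sequence, chosen after seeing the data, the rbcL median was 0.028.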
